A study of Homo sapiens with 12 samples.

Results

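The insulin-like growth factor (IGF) pathway genes described here were 10 genes chosen by name: the ligand IGF1, the receptors IGF1R and IGF2R, the binding proteins IGFBP2, IGFBP3, IGFBP4, IGFBP5 and IGFBP6, and the adaptors IRS1 and IRS2. Of these, 9 had a row among the 20771 genes counted, and all 9 were among the 16515 genes that passed the filter on low counts. IGFBP3, which EWS-FLI1 is known to repress in Ewing sarcoma, was not analysed here. RNA was sequenced from 2 Ewing sarcoma lines, EW8-RRM1-KO and a second named TC71-RRM1-KO, in which the endogenous RRM1 gene had been knocked out with CRISPR/Cas9 and which carried a doxycycline-inducible RRM1 transgene. RRM1 is the catalytic subunit of ribonucleotide reductase, the enzyme that makes deoxyribonucleotides. Libraries labelled 0 h were cells kept in doxycycline and libraries labelled 48 h were cells from which it had been withdrawn for 48 h, with 3 libraries in each of the 4 groups. All groups therefore carried the knockout and the transgene, the knockout cells had been cloned from single cells, and no parental cells without the knockout were among the 12 libraries. Nothing in the labels says that the 3 libraries of a group came from separate cultures, so the p-values measure the spread between these libraries, which may be technical.

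IGF1 binds IGF1R, a receptor tyrosine kinase that phosphorylates IRS1 and IRS2, and these adaptors recruit PI3-kinase and so activate AKT and mTOR. IGF2R carries no kinase and removes IGF2 from the cell surface, while the IGFBPs bind IGFs outside the cell and are themselves cleaved by proteases such as PAPPA. In Ewing sarcoma IGF1R signalling has long been studied as a growth and survival pathway, and FOXO factors are held out of the nucleus when AKT is active.

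RRM1 was read first. Its counts ranged from 166 to 317 in the EW8 libraries labelled 0 h and from 1201 to 1514 in those labelled 48 h, and from 316 to 422 and from 674 to 778 in TC71. RRM1 transcript was thus higher, not lower, in the libraries labelled 48 h, and these counts do not check the time labels. The transgene was codon optimised, and the sources used here do not say whether its reads entered these counts. CDKN1A, which arrested and damaged cells are known to induce, was higher in the libraries labelled 48 h of both lines, as given below. Total counts per library ran from 18468485 to 35698991. All 10 listed Ewing sarcoma markers (among them CD99, NKX2-2 and NR0B1) had a row, and their summed level was between 2432 and 2714 CPM in every library, where CPM are counts scaled to a library of 1000000 with TMM factors. CCND1 made up the largest part of that sum, and single markers moved with time, such as NR0B1 from 78.9 to 156 CPM and BCL11B from 86.6 to 40.1 CPM in EW8 (group means). Of the markers of other cells, PTPRC stayed at or under 0.219 CPM and EPCAM at or under 1.60 CPM. The fibroblast markers did move with time: the summed level of DCN, LUM and COL1A1 was 28.6 to 30.6 CPM in EW8 at 0 h and 62.6 to 69.3 CPM at 48 h, and 36.3 to 39.8 CPM and 60.4 to 63.2 CPM in TC71. Group means of COL1A1 were 11.2 and 38.6 CPM in EW8 and 20.6 and 32.5 CPM in TC71, those of DCN 13.5 and 21.4 CPM and 18.02 and 29.2 CPM, while LUM stayed near 0 in TC71 and PDGFRA had no row. Its part in the results below was not tested. In bulk RNA of this kind, a change in the make-up of the cells and a change in RNA per cell cannot be told apart.

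The promoters of 4 members, 2 that rose and 2 that fell in EW8, are shown first, since a reader may wish to set the responses beside the sequence they belong to. The stretches are the 250 bases before the RefSeq transcription start on GRCh38.p14, written 5′ to 3′ on the strand of the gene. RefSeq held starts for all 10 genes. IGF1 rose in EW8, lies at chr12:102395874-102481744 on the minus strand, and has a canonical transcript of 4 exons. The window is chr12:102481748-102481997, and its capitals mark the letters GTAAACA, the core bound by FOXO factors.
IGF1: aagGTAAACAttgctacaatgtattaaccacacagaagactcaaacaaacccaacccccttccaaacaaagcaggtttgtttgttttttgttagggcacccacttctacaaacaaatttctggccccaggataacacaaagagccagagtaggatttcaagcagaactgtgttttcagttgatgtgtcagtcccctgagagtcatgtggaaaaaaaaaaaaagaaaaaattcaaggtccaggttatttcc
IGFBP4 rose in both lines and lies at chr17:40443450-40457725 on the plus strand, with 4 exons. The window is chr17:40443200-40443449, and capitals mark CCGCCC, the reverse complement of the Sp1 letters GGGCGG.
IGFBP4: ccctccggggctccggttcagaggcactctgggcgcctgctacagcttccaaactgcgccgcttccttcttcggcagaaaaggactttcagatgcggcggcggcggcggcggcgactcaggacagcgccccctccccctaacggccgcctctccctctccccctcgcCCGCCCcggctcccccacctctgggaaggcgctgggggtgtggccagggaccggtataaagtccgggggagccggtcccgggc
IGF1R fell in both lines and lies at chr15:98648539-98964530 on the plus strand, with 21 exons. The window is chr15:98648289-98648538, and capitals mark GGGCGG.
IGF1R: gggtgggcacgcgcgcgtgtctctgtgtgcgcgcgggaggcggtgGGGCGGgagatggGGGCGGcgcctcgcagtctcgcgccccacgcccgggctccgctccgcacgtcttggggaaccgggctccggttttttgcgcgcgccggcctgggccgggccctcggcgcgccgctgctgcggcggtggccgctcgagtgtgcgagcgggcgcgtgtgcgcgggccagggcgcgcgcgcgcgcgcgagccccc
IGFBP5 fell the most in both lines and lies at chr2:216672105-216695549 on the minus strand, with 4 exons. The window is chr2:216695550-216695799 and held none of the letters searched.
IGFBP5: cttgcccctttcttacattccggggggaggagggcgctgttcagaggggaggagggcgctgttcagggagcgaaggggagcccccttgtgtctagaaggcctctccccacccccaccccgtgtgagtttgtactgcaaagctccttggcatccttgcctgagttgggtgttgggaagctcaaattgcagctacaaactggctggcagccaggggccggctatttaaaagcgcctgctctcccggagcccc
The GTAAACA letters also stood before IGFBP6, 186 bases upstream of its start, in chr12:53097470-53097499 on the plus strand, which a longer GENCODE transcript counts as exon.
IGFBP6: caatttgggaaGTAAACAgaaactggaaag

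The 6 motifs searched on both strands were AP-1 (TGANTCA), CRE (TGACGTCA), FOXO (GTAAACA), E-box (CACGTG), Sp1 (GGGCGG) and a tandem of the ETS core (GGAAGGAA). AP-1, CRE and tandem GGAA letters were in no window of the 10 genes, against 6.57%, 1.65% and 3.06% of all 35116 promoter windows of the same length. GTAAACA was in 2.98% of all windows. Among the 10 genes it stood before IGF1, 247 bases upstream, and before IGFBP6. CACGTG was found 3 times before IGF2R and before no other of the 10 genes, and 6.34% of all windows held it. GGGCGG, present in 42.6% of all windows, was before each of the 10 genes except IGF1 and IGFBP5. The IGF1 window was also low in G and C, at 39.6% against a median of 58% for all windows, while those of IGF1R and IRS1 stood at 81.2% and 80.8%. A match is a description of the letters and does not show that a factor binds there. IGFBP2 (chr2:216632828-216664436, plus strand) and IGFBP5 lie on chromosome 2, tail to tail, with 7668 bases between them.

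At 0 h, before doxycycline was withdrawn, both lines expressed all 9 genes, over a wide range of levels. Levels were compared between genes only as CPM per kb of the GENCODE canonical transcript. The orders below depend on that length, which for IGFBP2 is 1414 bases, against 4742 over all its exons. In EW8 the order was IGFBP2 (35.4 ± 1.34 CPM per kb, SD, n = 3), then IGF2R and IGFBP4 at 14.4 each, IRS2 at 12.1, IGF1R at 10.2, IRS1 at 7.22, IGFBP5 at 2.88, IGF1 at 2.86 and IGFBP6 at 1.33 ± 0.266. The libraries of IGF2R and IGFBP4 overlapped, as did those of IGFBP5 and IGF1, and the other neighbours in this order did not. In TC71 IGFBP4 led at 57.8 ± 4.51 CPM per kb, followed by IGFBP2 at 33.0, IRS2 at 12.1, IGF2R at 9.46, IGF1R at 8.20, IRS1 at 2.16, IGF1 at 1.78, IGFBP6 at 1.75 and IGFBP5 at 0.400 ± 0.106. Of the neighbours in that order, only IGF1 and IGFBP6 overlapped, and the IGFBP6 libraries also reached those of IRS1. Binding proteins, the extracellular carriers, thus had the highest transcript level in either line and also the lowest.

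The difference between the lines at 0 h was tested for each gene with edgeR's quasi-likelihood test and Benjamini-Hochberg adjustment over all genes. A gene was called where its adjusted p was below 0.05 and its fold above 2, and rose or fell is used below wherever the adjusted p alone passed. Of the 9 members, 2 were called higher in EW8 and 1 was called lower, while 4.77% and 11.9% of all genes tested were. IGFBP5, a binding protein that also attaches to the extracellular matrix, had 17.7 to 18.5 CPM in EW8 and 1.99 to 3.24 CPM in TC71, a log2 difference of 2.83 ± 0.14 (SE; adjusted p = 4.71e-18, edgeR). IRS1 had 68.9 to 73.2 CPM in EW8 and 19.9 to 22.1 CPM in TC71, a log2 difference of 1.74 ± 0.06 (adjusted p = 8.64e-24, edgeR). IGFBP4, an inhibitory binding protein, went the other way, with 31.4 to 32.2 CPM in EW8 and 119 to 139 CPM in TC71, a log2 difference of -2.0 ± 0.06 (adjusted p = 1.46e-24, edgeR). By the adjusted p alone 5 members were higher and 1 was lower, 6 of 9 in all, against 32.8%, 32.9% and 65.7% of all genes, so the share in all is near the background. The libraries of the lines did not overlap for the same 6 of 9, against 68.3% of all genes. IGF1, IGF2R and IGF1R were higher in EW8 by 0.68, 0.61 and 0.31 on the log2 scale. The adjusted p of IGFBP2, IRS2 and IGFBP6 did not pass (0.123, 0.860 and 0.0900), with 95% intervals of the log2 difference from -0.02 to 0.22, from -0.11 to 0.09 and from -0.85 to 0.02.

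**Figure D1:**
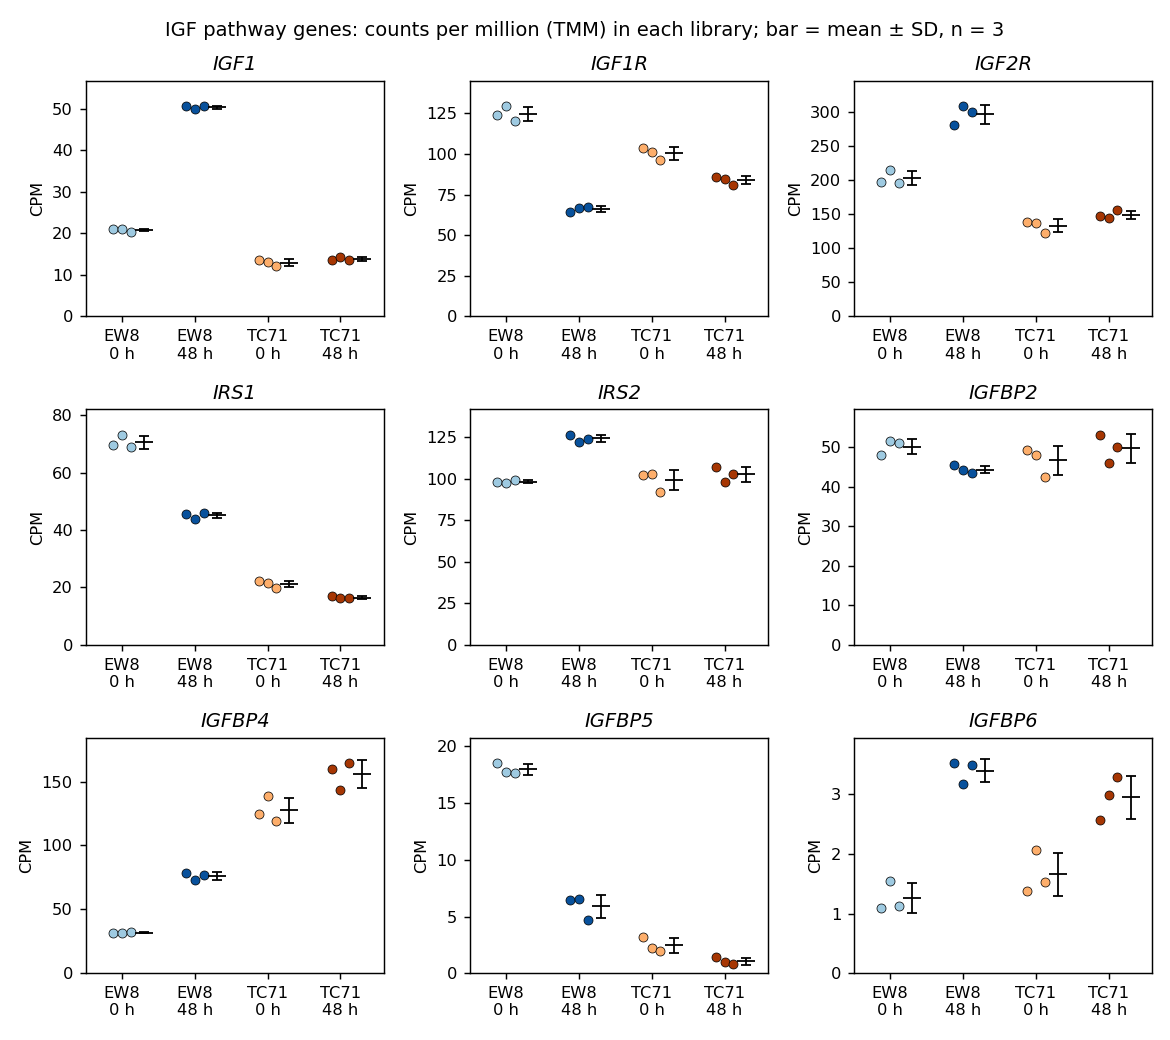
CPM (linear axis from 0) of the 9 IGF pathway genes in each of the 12 libraries, with the mean ± SD of each group of 3 beside the points. IGF1 sits near 50 CPM only in the EW8 libraries labelled 48 h, and IGFBP5 is lower at 48 h than at 0 h in both lines.

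After 48 h without doxycycline, EW8 cells carried more IGF1 transcript and less IGF1R transcript. IGF1, the ligand, was measured at 21.0, 21.0 and 20.4 CPM in the libraries labelled 0 h and at 50.5, 49.8 and 50.6 CPM in those labelled 48 h. The groups lay far apart and each was tight. In GENCODE 6693 of the 8115 exon bases of IGF1 are shared with HELLPAR on the other strand, and the strand setting of the counting is not given in the sources used here. The log2 fold change was 1.28 ± 0.06 (SE), a 2.42-fold rise (adjusted p = 2.75e-19, edgeR). IGF1R, its receptor, stood at 124, 129 and 120 CPM at 0 h and at 64.2, 66.9 and 67.6 CPM at 48 h. Every library labelled 48 h was below every library labelled 0 h. The log2 fold change was -0.91 ± 0.05 with a 95% interval from -1.0 to -0.81 (adjusted p = 3.30e-18, edgeR), so IGF1R fell without reaching the 2-fold threshold. IGF2R, the receptor without a kinase, had 198, 215 and 196 CPM at 0 h and 282, 309 and 300 CPM at 48 h. It rose by 0.55 ± 0.05 on the log2 scale (adjusted p = 1.07e-11, edgeR).

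In TC71 the same genes moved less or did not pass. IGF1 was at 13.6, 13.2 and 12.04 CPM at 0 h and at 13.5, 14.2 and 13.6 CPM at 48 h, and these ranges overlapped. Its log2 fold change was 0.09, with a 95% interval from -0.05 to 0.24 (adjusted p = 0.310, edgeR). IGF1R was at 104, 101 and 96.2 CPM at 0 h and at 85.8, 84.4 and 81.1 CPM at 48 h. It fell by 0.26 ± 0.05 on the log2 scale (adjusted p = 1.83e-05, edgeR), and the groups did not overlap. IGF2R had 139, 138 and 122 CPM at 0 h and 147, 144 and 156 CPM at 48 h, and so rose by 0.17 ± 0.05 on the log2 scale (adjusted p = 0.00642, edgeR), and its adjusted p no longer passed without TC71 0 h replicate 3 (0.11, adjusted p = 0.0902) or without TC71 48 h replicate 3 (0.13, adjusted p = 0.0518).

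The balance between these transcripts was followed within each library as the ratio of CPM per kb. IGF1 to IGF1R was 0.281 ± 0.00739 (SD, n = 3) in EW8 at 0 h and 1.28 ± 0.0393 at 48 h. Per kb, the ligand transcript thus passed from below to above that of its receptor. This crossing rests on the canonical lengths, 7277 bases for IGF1 and 12235 for IGF1R. In CPM IGF1 stayed below IGF1R in EW8 at 48 h (49.8 to 50.6 against 64.2 to 67.6). In TC71 the ratio per kb was 0.217 ± 0.00543 at 0 h and 0.277 ± 0.0102 at 48 h. IGF1R to IGF2R was 0.705 ± 0.0147 and 0.257 ± 0.00675 in EW8, and 0.869 ± 0.0324 and 0.646 ± 0.0430 in TC71. The libraries of 0 h and 48 h did not overlap for either ratio in either line. With 3 libraries against 3, an exact permutation test cannot go below p = 0.10, and no test of the ratios was made.

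The adaptors moved apart. IRS1, the adaptor that was much higher in EW8, had 69.7, 73.2 and 68.9 CPM in EW8 at 0 h and 45.5, 43.9 and 45.8 CPM at 48 h. In TC71 it had 22.1, 21.5 and 19.9 CPM and then 17.1, 16.3 and 16.2 CPM. The libraries labelled 48 h were the lower in both lines, with log2 fold changes of -0.64 ± 0.05 (adjusted p = 6.63e-13, edgeR) and -0.36 ± 0.06 (adjusted p = 2.40e-05, edgeR). IRS2, which shares the docking role of IRS1, rose in EW8 from 98.1, 97.6 and 99.2 CPM to 126, 122 and 124 CPM, by 0.34 ± 0.05 on the log2 scale (adjusted p = 1.06e-07, edgeR). In TC71 IRS2 had a log2 fold change of 0.05, with a 95% interval from -0.04 to 0.15 (adjusted p = 0.396, edgeR). The ratio of IRS1 to IRS2 in CPM per kb went from 0.599 ± 0.0238 to 0.303 ± 0.00429 in EW8 and from 0.178 ± 0.00365 to 0.134 ± 0.00379 in TC71 (SD, n = 3).

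IGFBP5 had the lowest response of the members in both lines. Its counts were 423, 310 and 579 in EW8 at 0 h and 122, 130 and 97 at 48 h, and 87, 46 and 48 and then 37, 26 and 26 in TC71. Scaled, these were 17.7 to 18.5 CPM and 4.75 to 6.52 CPM in EW8, and 1.99 to 3.24 CPM and 0.804 to 1.41 CPM in TC71. No library labelled 48 h reached a library labelled 0 h of its line, although TC71 0 h replicate 1 stood above its group. On the log2 scale the change was -1.61 ± 0.12 (adjusted p = 3.01e-13, edgeR) in EW8 and -1.27 ± 0.22 (adjusted p = 1.85e-05, edgeR) in TC71, where leaving out each library in turn moved it between -1.52 and -1.01. From the bottom of the 16515 genes ordered by log2 fold change, IGFBP5 was number 96 in EW8 and number 67 in TC71. It was the only member called in both lines.

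IGFBP4 rose in both lines. In EW8 it was measured at 31.4, 31.8 and 32.2 CPM at 0 h and at 78.4, 72.7 and 77.2 CPM at 48 h, and so rose by 1.26 ± 0.06 on the log2 scale (adjusted p = 9.82e-19, edgeR). In TC71, where it began 4.0-fold higher, it had 125, 139 and 119 CPM and then 160, 144 and 164 CPM, a log2 fold change of 0.29 ± 0.05 (adjusted p = 2.18e-05, edgeR). The EW8 libraries labelled 48 h still lay below every TC71 library. IGFBP6, a binding protein with a preference for IGF2, was the least counted member in EW8 at 0 h, with 25, 27 and 37 counts there and 66, 63 and 71 at 48 h. In TC71 it had 37, 42 and 37 counts and then 67, 80 and 106. It rose by 1.46 ± 0.19 (adjusted p = 3.04e-08, edgeR) and 0.86 ± 0.18 (adjusted p = 1.56e-04, edgeR) on the log2 scale, and without TC71 0 h replicate 2 the TC71 value was 1.02, past the 2-fold threshold. IGFBP2 changed little: it had 47.9, 51.4 and 50.9 CPM in EW8 at 0 h and 45.4, 44.1 and 43.4 CPM at 48 h. Its log2 fold change of -0.18 ± 0.06 (adjusted p = 0.00996, edgeR) did not pass when libraries were scaled by total counts alone (-0.05, adjusted p = 0.460). In TC71 it was 0.09, with an interval from -0.03 to 0.21 (adjusted p = 0.217, edgeR).

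Taken per kb of canonical transcript, the 4 binding proteins counted among the members changed their order in EW8. IGFBP2 made up 65.5% ± 0.595 (SD, n = 3) of their summed level at 0 h and 44.5% ± 0.882 at 48 h, while IGFBP4 went from 26.7% ± 0.582 to 49.0% ± 0.901. IGFBP5 went from 5.34% to 1.35% and IGFBP6 from 2.45% to 5.07%. In TC71 IGFBP4 already held 62.2% ± 1.5 at 0 h and 64.8% ± 0.807 at 48 h. The sum of the 4 was 54.1 ± 1.59 CPM per kb and then 70.4 ± 1.91 in EW8, and 92.9 ± 6.64 and then 109 ± 7.07 in TC71. These shares are of the 4 members counted here and leave out IGFBP3 and the low-count IGFBP7. They rest on the canonical lengths: IGFBP2 has 1414 bases there and 4742 over all its exons, while IGFBP4 has 2205 by both. With the longer length the IGFBP2 share would be lower, and the order was not computed with it. Which transcripts were made was not measured.

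**Figure D2:**
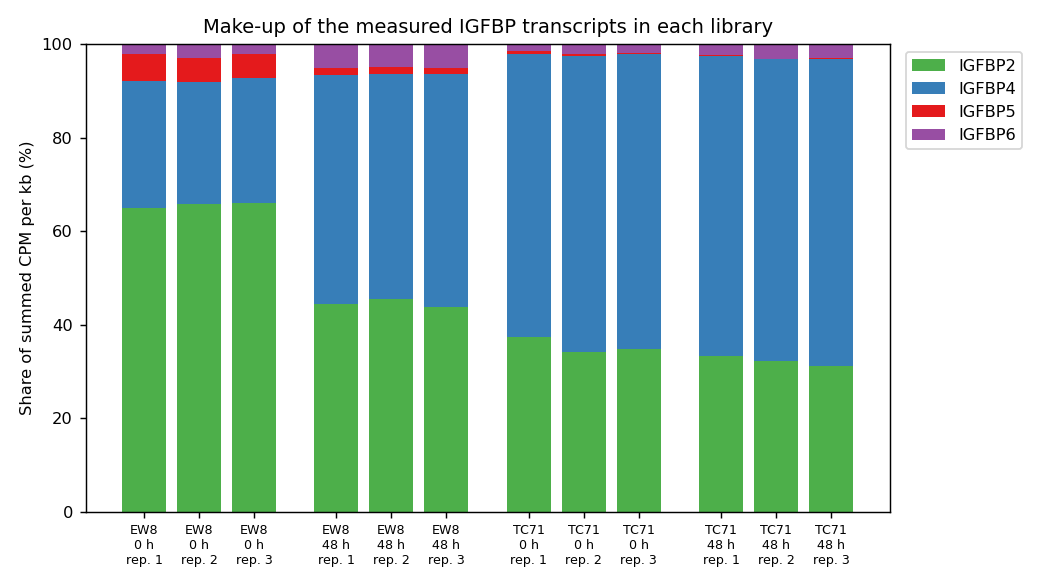
Share of IGFBP2, IGFBP4, IGFBP5 and IGFBP6 in their summed CPM per kb, in percent, with 1 stacked bar for each of the 12 libraries. In EW8 the IGFBP2 share is 64.8% to 65.9% at 0 h and 43.8% to 45.5% at 48 h, and in TC71 IGFBP4 is the largest share in every library.

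Counted over the members, 3 were called higher in EW8 at 48 h (IGF1, IGFBP4 and IGFBP6) and 1 lower (IGFBP5), where 13.9% and 3.35% of all genes tested were. In either direction these are 4 of 9, against 17.2%. In TC71 none was called higher and IGFBP5 was called lower, where 3.26% and 0.854% of all genes were, and 4.12% in either direction. By the adjusted p alone, EW8 had 5 members that rose and 4 that fell, where 37.0% and 31.6% of all genes did and 68.6% did either. For TC71 the members were 3 and 3, against 22.9%, 19.2% and 42.1%. The libraries of 0 h and 48 h did not overlap for any member in EW8, which held for 71.1% of all genes, and for 6 of 9 in TC71, against 49.6%. Over the members, the median on the log2 scale was 0.34 for EW8 and 0.09 for TC71, beside 0.03 and 0.00 for all genes. The fibroblast marker sums given above were higher at 48 h in both lines, as were IGFBP4 and IGFBP6.

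Whether the lines differed in their response was tested directly, as the difference of the EW8 and the TC71 log2 fold changes. IGF1 differed by 1.18 ± 0.09 (adjusted p = 2.33e-12, edgeR), and it alone of the 9 was called, where 7.28% of all genes were called higher, 0.981% lower and 8.26% in either direction. IGFBP4 differed by 0.96 ± 0.08 (adjusted p = 7.97e-12, edgeR), close to the threshold, and reached 1.0 without TC71 0 h replicate 3. IGF1R differed by -0.65 ± 0.07 (adjusted p = 5.96e-10, edgeR), that is, it fell further in EW8. The other members that passed by the adjusted p alone were IGF2R (0.38), IRS2 (0.29), IRS1 (-0.29) and IGFBP2 (-0.27), which makes 4 higher and 3 lower, 7 of 9 in all, against 25.7%, 22.4% and 48.1% of all genes. For IGFBP5 the difference was -0.34 with an interval from -0.87 to 0.20 (adjusted p = 0.305, edgeR), and for IGFBP6 it was 0.61 with an interval from 0.06 to 1.15 (adjusted p = 0.0592, edgeR). The adjusted p of the IGFBP6 difference passed in 4 alternative settings, down to 0.0352, so whether it passes depends on the setting. The difference itself, from 0.44 to 0.72 over the settings, stayed under the 2-fold threshold. For IGFBP5 these data do not separate the lines, nor do they show that the lines responded alike.

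**Figure D3:**
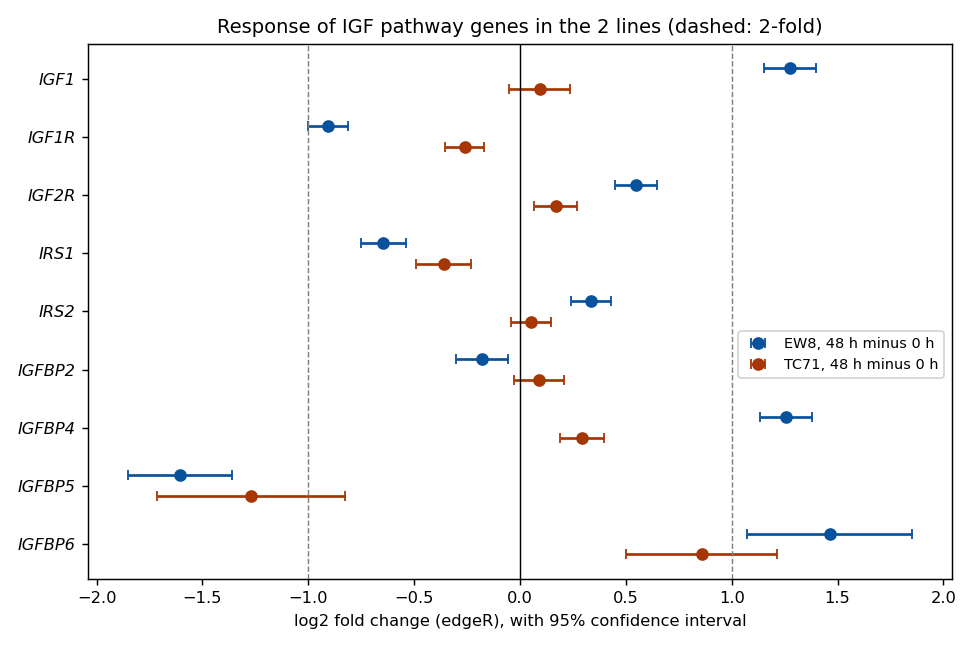
Log2 fold change at 48 h against 0 h of the 9 IGF pathway genes in EW8 (blue) and TC71 (brown), with 95% confidence intervals from edgeR over 3 libraries a group. Dashed lines mark a 2-fold change. IGFBP5 lies past the lower line in both lines, while IGF1 is at 1.28 in EW8 and at 0.09 in TC71.

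The other genes of the pathway were taken from a list of 75, of which 65 had a row and 63 passed the filter. In EW8 13 of the 63 were called higher and none lower, with a median log2 fold change of 0.14, where 13.9% and 3.35% of all genes were called. In TC71 1 was called higher and none lower, with a median of 0.03, against 3.26% and 0.854%. By the adjusted p alone the list split into 30 higher and 18 lower in EW8, where 37.0% and 31.6% of all genes did, and into 18 and 12 in TC71, against 22.9% and 19.2%. The difference between the lines was called for 6 genes, each with the higher response in EW8, where 7.28% of all genes were called in that direction.

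Around the ligand and its receptor, INSR was well counted, and the other genes had few counts. IGF2, the other ligand, had 7 to 26 counts in every library and was not called in either line (log2 fold change -0.24 in EW8 with adjusted p = 0.596 and -0.72 in TC71 with adjusted p = 0.138, edgeR). INSR, the insulin receptor, rose by 0.43 in EW8 (adjusted p = 2.60e-04, edgeR) and by 0.26 in TC71 (adjusted p = 4.96e-04, edgeR), and was lower in EW8 than in TC71 at 0 h, with a log2 difference of -2.52. INSRR and IGFALS had at most 7 counts in any library and did not pass the filter. The low-count IGFBP7 had 4, 3 and 9 counts in EW8 at 0 h and 23, 10 and 14 at 48 h, and was called there (1.84 ± 0.49, adjusted p = 0.00132, edgeR).

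The proteases that free IGFs from their binding proteins and the inhibitors of those proteases were a group of 4 genes with counts. PAPPA, the metalloprotease that cleaves IGFBP4 and IGFBP5, had 38.6, 34.1 and 30.01 CPM in EW8 at 0 h and 77.4, 86.5 and 85.7 CPM at 48 h. Its log2 fold change was 1.29 ± 0.07 (adjusted p = 5.15e-14, edgeR), beside 0.26 in TC71 (adjusted p = 0.0272, edgeR). STC2, a stanniocalcin that inhibits PAPPA, had 22.1, 24.3 and 20.3 CPM and then 45.4, 46.3 and 42.1 CPM in EW8. It was called there at 1.02 ± 0.07 (adjusted p = 5.28e-15, edgeR), just past the fold threshold and in 16 of 21 alternative settings (0.91 without EW8 0 h replicate 3), and had -0.11 in TC71 (adjusted p = 0.288, edgeR). Of the 4 genes 2, PAPPA and STC2, were thus called higher in EW8 and none in TC71, where 13.9% and 3.26% of all genes were. IGFBP4 was likewise called in EW8 and not in TC71. The difference between the lines was called for PAPPA (1.03) and STC2 (1.13), where 7.28% of all genes were called in that direction. STC1, the other stanniocalcin, rose by 0.71 in EW8 (adjusted p = 2.63e-06, edgeR) and had 0.53 in TC71 (adjusted p = 0.163, edgeR). Its difference between the lines was 0.18 (adjusted p = 0.699, edgeR). ADAM12, another protease of IGFBPs, had 0.06 in EW8 (adjusted p = 0.804, edgeR) and 0.52 in TC71 (adjusted p = 0.0620, edgeR).

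Below the receptor, no gene among the 9 other adaptors was called in either line, where 17.2% of all genes were in EW8 and 4.12% in TC71. On the adjusted p alone 5 of the 9 passed in EW8 and 3 in TC71, against 68.6% and 42.1%. GRB10, an adaptor that restrains IGF1R and insulin receptor signalling, fell by 0.46 in EW8 (adjusted p = 2.97e-10, edgeR) and by 0.54 in TC71 (adjusted p = 2.82e-11, edgeR). Among 10 PI3K and AKT genes, 3 were called higher in EW8, where 13.9% of all genes were, and by the adjusted p alone 5 were higher and 4 lower, against 37.0% and 31.6%. The regulatory subunit PIK3R3 rose by 1.11 (adjusted p = 7.10e-19, edgeR), and by 0.73 in TC71 (adjusted p = 3.62e-13, edgeR). PIK3CD, a catalytic subunit, rose from 20 to 23 counts at 0 h to 35 to 42 at 48 h, and was not called without EW8 0 h replicate 3 (0.81). PIK3IP1, an inhibitor of PI3-kinase, rose from 6 to 9 counts to 17 to 23. The catalytic subunit PIK3CB fell by 0.76 in EW8 (adjusted p = 8.95e-12, edgeR) and the regulatory subunit PIK3R1 by 0.27 (adjusted p = 1.27e-05, edgeR). The catalytic subunit PIK3CA rose by 0.41 in EW8 (adjusted p = 4.40e-08, edgeR). AKT1 and AKT2 fell in EW8 by 0.24 (adjusted p = 9.22e-05, edgeR) and 0.36 (adjusted p = 7.57e-08, edgeR), while in TC71 AKT1 rose by 0.15 (adjusted p = 0.0155, edgeR) and AKT2 had -0.08 (adjusted p = 0.193, edgeR). None of the 9 mTOR genes was called in either line, and by the adjusted p alone 4 rose and 3 fell in EW8 (37.0% and 31.6% of all genes did), among them RPS6KB1 (0.66) and EIF4EBP1 (-0.56). Of 9 RAS and ERK genes BRAF was called higher in EW8 (1.03, adjusted p = 3.72e-18, edgeR; 18 of 21 alternative settings, 0.98 without EW8 0 h replicate 3), where 13.9% of all genes were. On the adjusted p alone 1 of the 9 rose and 6 fell in EW8, against 37.0% and 31.6%, HRAS by 0.63 and NRAS by 0.50. None of the 4 phosphatases and none of the 3 IGF2 mRNA-binding proteins was called in either line, against 17.2% and 4.12% of all genes. Of the 4 phosphatases 3 passed the adjusted p alone in EW8 and 4 in TC71, against 68.6% and 42.1% of all genes. INPPL1, which acts on PIP3, had 0.79 and 0.44. Of the 3 mRNA-binding proteins 2 passed in each line, against the same shares.

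FOXO target genes had the most calls of any role. Of the 8 tested, 5 were called higher in EW8 and 1 in TC71, where 13.9% and 3.26% of all genes were. By the adjusted p alone 7 and 6 rose and none fell, against 37.0% and 22.9% of all genes that rose. Their median was 1.37 on the log2 scale in EW8, beside 0.48 in TC71. CCNG2, an unconventional cyclin of arrested cells, was at 4.95 to 5.43 CPM in EW8 at 0 h and at 22.6 to 26.0 CPM at 48 h, and at 13.0 to 13.1 CPM and 19.9 to 20.5 CPM in TC71. On the log2 scale it rose by 2.18 ± 0.09 in EW8 (adjusted p = 2.12e-21, edgeR) and by 0.63 ± 0.07 in TC71 (adjusted p = 1.66e-08, edgeR). The pro-apoptotic BCL2L11 rose by 1.52 and 0.61, the transcriptional regulator CITED2 by 1.61 and 0.35, and SESN3, an inhibitor of mTORC1, by 1.21 and 0.24. KLF2 had 4 to 6 counts in EW8 at 0 h and 47 to 52 at 48 h, and 5 to 7 and then 25 to 31 counts in TC71, and was called in both lines. The difference between the lines was called for 3 of the 8, where 7.28% of all genes were called in that direction. These were CCNG2 (1.55), CITED2 (1.26) and the low-count KLF2 (1.74 ± 0.52). Of the factors themselves, FOXO3 rose by 1.18 in EW8 (adjusted p = 1.68e-20, edgeR) and by 0.41 in TC71 (adjusted p = 1.58e-07, edgeR), and FOXO1 fell by 0.29 in EW8 (adjusted p = 0.00118, edgeR). IGF1 and IGFBP6, the members with GTAAACA letters in the promoter window shown above, were among the members called higher in EW8, and IGFBP4, the other member so called, held none. In TC71 IGF1 did not pass (0.09, adjusted p = 0.310, edgeR) and IGFBP6 rose by 0.86. Whether FOXO factors had a part in any of these responses was not tested.

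**Figure D4:**
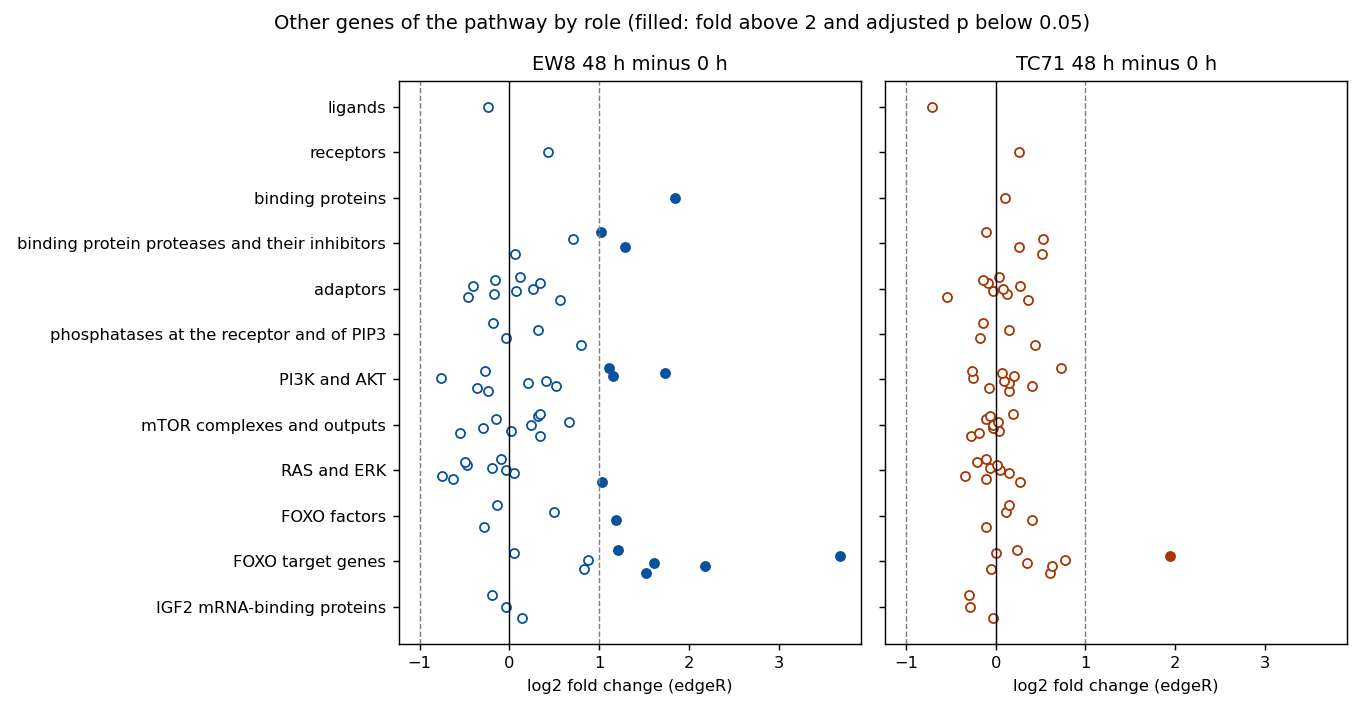
Log2 fold change at 48 h against 0 h of the 63 other pathway genes tested, grouped by role, in EW8 (left) and TC71 (right). Filled points passed both thresholds and dashed lines mark a 2-fold change. Of the 8 FOXO target genes 5 are filled in EW8 and 1 in TC71.

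Since IGFBP3 could not be followed, other genes that EWS-FLI1 is known to repress were read in its place. Of 6 listed, 4 had a row. CDKN1A, an inhibitor of cyclin-dependent kinases that many stresses also induce, rose by 3.40 in EW8 (adjusted p = 4.20e-24, edgeR) and by 2.05 in TC71 (adjusted p = 1.31e-18, edgeR). TGFBR2, a TGF-beta receptor, rose by 0.83 (adjusted p = 4.79e-12, edgeR) and 0.45 (adjusted p = 1.26e-04, edgeR). LOX, a lysyl oxidase, had 0.17 (adjusted p = 0.576, edgeR) and -0.11 (adjusted p = 0.835, edgeR), and FOXO1 fell in EW8 as given above. The 4 genes thus did not share 1 direction.

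Across the 12 libraries, the genes whose log2 CPM ran most alike were, for IGF1, CDH10, TBRG1 and MARK3 (Pearson r from 0.996 to 0.997), and for IGF1R, ZNF395, NONO and RPL19 (r from 0.989 to 0.992). For IGFBP5 they were TNPO3, TULP4 and KPNA1 (r from 0.989 to 0.990), and for IGFBP4, SH3TC1, GPSM1 and TMC8 (r from 0.995 to 0.997). These correlations describe 12 libraries that form 4 groups, so they follow mostly the 4 group means.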

How the data were processed

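The authors sequenced poly(A) RNA (TruSeq Stranded mRNA, Illumina NovaSeq, paired-end 100 bp), ran FastQC, and aligned with STAR to the hg38 genome. The counting tool, its annotation and its strand setting are not given in the sources used here. The deposited table holds raw counts per gene in 12 columns, and no gene sums to less than 21 across the 12 columns.

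Counts were tested with edgeR 4.0.16 (R 4.3.3): filterByExpr by group (min.count 10, min.total.count 15), TMM factors, and a robust quasi-likelihood fit to all 12 libraries, with Benjamini-Hochberg adjustment over 16515 genes and without a replicate block. The biological coefficient of variation was 4.167%. The same code was tested on simulated data. Tables and figures were made with Python 3.11.15. The 3 same-numbered pairs of each line did not deviate together (r from -0.138 to -0.0147), so the numbers were not taken to pair libraries. No 2 replicates differed by less than the sampling noise.

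Coordinates and canonical lengths are from GENCODE release 44, which matched 19943 of 20771 identifiers, and promoters from RefSeq on GRCh38.p14. In GENCODE, exons of IGF1 share 6693 bases with the antisense HELLPAR and those of IGFBP5 share 487 with DIRC3-AS1. IGF2R shares 571 with the pseudogene CHP1P2 on its own strand, and IRS2 shares 115 with an antisense transcript. Reads there could not be assigned again.

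Named genes were the 10 members, and of the hand-written pathway list those called in EW8, TC71 or the difference between the lines. INSR, GRB10, AKT1, AKT2, PIK3CA, PIK3CB, PIK3R1, RPS6KB1, EIF4EBP1, INPPL1, HRAS, NRAS, STC1, ADAM12, FOXO1, IGF2, INSRR and IGFALS were named after their values were seen. The members and lists were chosen with earlier results of these data known, so no p is given over the list and no list was tested as a set. The alternatives were DESeq2 1.42.0 size factors and its Wald test, upper-quartile factors, total counts, no filter, at least 10 counts in every library, a fit that is not robust, the groups of each contrast alone, a replicate block, no fold threshold, and leaving out each library in turn.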

Additional observations from a re-analysis of the deposited data

Results flagged for a closer look

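The response to 48 h without doxycycline differed between EW8 and TC71, by the test of the difference itself in edgeR, for 7 of the 9 members, where 48.1% of all genes tested did. The log2 response in EW8 minus that in TC71 was 1.18 for IGF1 (95% interval 0.99 to 1.37), 0.96 for IGFBP4 (0.80 to 1.13) and -0.65 for IGF1R (-0.78 to -0.51). It was 0.38 for IGF2R and 0.29 for IRS2, both higher in EW8 (the TC71 value of IRS2 did not pass), and -0.29 for IRS1, which fell further there. For IGFBP2 it was -0.27, with -0.18 in EW8 and 0.09 in TC71, of which the TC71 value did not pass, and under total counts its adjusted p was 0.0591. The level at 0 h also differed between the lines by the adjusted p for 5 of these 7, all but IGFBP2 and IRS2, which is near the 65.7% of all genes, and by more than 2-fold for IGFBP4 (31.8 and 128 CPM) and IRS1 (70.6 and 21.1 CPM), and RRM1 itself rose by 2.88 in EW8 and by 0.65 in TC71 on the log2 scale. The part of either in these differences was not tested.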

How the results depend on the processing

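Each member's log2 fold change was computed in 4 comparisons under up to 21 alternative settings. Of 747 such values 739 kept their direction and stayed called or not called by both thresholds together, 3 became called, and 5 changed sign, all of them differences between the lines at 0 h that did not pass in the first place: IGFBP2 at -0.030 with total counts, and IRS2, which lay between -0.060 and 0.014 as single libraries were left out and was above 0 without EW8 0 h replicate 1 or 2 or TC71 0 h replicate 1 or 2. Counted on the adjusted p alone, 12 values crossed the threshold. Total counts alone shifted the median of all genes by 0.13 in EW8 and by -0.13 at 0 h between the lines, and IRS2 at 0 h then passed the adjusted p (-0.14, 0.00739). With total counts, 2 members (IGF1 and IGFBP4, 1.04) were called for the difference between the lines. Leaving out single libraries gave 0 to 1 members called higher in TC71 and 1 to 2 for the difference. The difference of IGFBP6 passed the adjusted p in 4 settings (total counts, and without EW8 0 h replicate 2, TC71 0 h replicate 1 or TC71 48 h replicate 3), with a range from 0.0352 to 0.213 over all, and its level at 0 h passed in 3 settings (0.0264 to 0.356 over all). Without the fold threshold 5 members were called higher and 4 lower in EW8, 3 and 3 in TC71, 4 and 3 for the difference, and 5 higher at 0 h. Of the pathway list the counts were then 30 and 18, 18 and 12, 24 and 9, and 29 and 15. With at least 10 counts in every library, none of the list was called in TC71 (KLF2 no longer entered) and 2 were called higher at 0 h. In EW8 the list then had 10 called higher, 11 with upper-quartile factors, and 10 to 13 without single libraries, the lowest without EW8 0 h replicate 3. With the replicate number as a block no member changed its call, for example IGF1 at 1.27 and IGFBP5 at -1.62 in EW8. The difference between the lines has no value from a fit of each line alone. Depth limits IGFBP6 in both lines, IGFBP5 in TC71, IGFBP7, KLF2, PIK3IP1 and IGF2, all with few counts, and 3 libraries a group limit every comparison.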
